A study of Mus musculus with 13 samples.

Results

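The transcripts described here encode the receptor for interleukin-2 (IL-2), the transcription factors it activates and the inhibitors that those factors induce. They were measured by bulk RNA sequencing of T cells sorted from mouse B16-F10 melanomas with and without regulatory T (Treg) cells, and the question put to them was whether conventional T (Tconv) cells carried more of the transcripts that respond to IL-2 once Treg cells were removed. Members were chosen by gene symbol. They were the receptor chains Il2ra, Il2rb and Il2rg, the transcription factors Stat5a and Stat5b, and the feedback genes Cish, Socs1, Socs2 and Socs3. All 9 were listed among the 12963 genes of the table, and all 9 passed the filter on low values.

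All mice carried the Foxp3-EGFP-DTR allele, in which cells that express Foxp3 also make EGFP and a diphtheria toxin receptor of human origin. Diphtheria toxin (DTx) therefore kills those cells, and mice given saline (PBS) keep them. Tumors came from B16-F10, an established melanoma line placed under the skin of immunocompetent mice. The 13 libraries made up 5 groups. From mice given PBS came Treg PBS with 3 libraries, CD4 PBS (CD4+ Tconv cells) with 2 and CD8 PBS (CD8+ Tconv cells) with 2, and from mice given DTx came CD4 DTx with 3 libraries and CD8 DTx with 3. Wild-type mice given DTx were not analysed here, so removal of Treg cells and exposure to the toxin cannot be told apart. The study's methods give age-matched adult mice of both sexes, but the methods and a legend name different days after implantation for the isolation of these cells, and the labels name none. The study describes its replicates as isolated on independent days. The labels say neither whether a replicate number marks a day nor how many tumors made 1 library. P-values measure the spread between these libraries. Replicates are named by the numbers in the labels, and both PBS-treated Tconv groups held only numbers 2 and 3.

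IL-2 is made mainly by activated T cells and is bound by a receptor of an alpha chain (CD25, encoded by Il2ra), a beta chain (CD122, Il2rb) and the common gamma chain (Il2rg). The beta and gamma chains alone bind IL-2 weakly and signal, and the alpha chain raises the affinity, which is why Treg cells, with constitutive CD25, are known as strong consumers of IL-2. The kinases JAK1 and JAK3 on the beta and gamma chains phosphorylate STAT5A and STAT5B, which then induce Il2ra itself and genes of the CIS and SOCS family, whose proteins bind receptors or JAKs and shut the signal off. SOCS3 is better known as the brake on IL-6 family receptors, which act through STAT3, and SOCS1 as a brake on interferon and common gamma chain signals.

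Promoter sequence is shown for the feedback genes whose start region holds the core letters to which STAT dimers bind. Windows of 300 bases, from 250 bases before to 50 bases after the annotated start, were taken from RefSeq on GRCm38.p6, a later build than the NCBIM37 (mm9) genome to which the reads were aligned. Of the 9 members, 7 had an entry, with 9 windows in all, and Il2rb and Socs2 had none. The motif searched was TTCNNNGAA, which reads the same on both strands, with overlapping matches counted. It was found in Cish and Socs3 and not in the windows of Il2ra, Il2rg, Stat5a, Stat5b and Socs1. Of all 32851 windows, 8.30% held it at least 1 time and 0.457% at least 2 times. In the sequences below, given 5′ to 3′ on the gene's strand, capitals mark the matches.
Cish, chr9:107296409-107296708, plus strand: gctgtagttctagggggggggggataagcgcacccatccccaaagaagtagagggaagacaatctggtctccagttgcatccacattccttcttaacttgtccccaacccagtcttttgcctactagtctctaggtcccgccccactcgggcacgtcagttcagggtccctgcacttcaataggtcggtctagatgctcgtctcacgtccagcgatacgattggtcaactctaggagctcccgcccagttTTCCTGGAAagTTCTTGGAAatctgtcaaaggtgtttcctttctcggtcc
Socs3, chr11:117969317-117969616, minus strand: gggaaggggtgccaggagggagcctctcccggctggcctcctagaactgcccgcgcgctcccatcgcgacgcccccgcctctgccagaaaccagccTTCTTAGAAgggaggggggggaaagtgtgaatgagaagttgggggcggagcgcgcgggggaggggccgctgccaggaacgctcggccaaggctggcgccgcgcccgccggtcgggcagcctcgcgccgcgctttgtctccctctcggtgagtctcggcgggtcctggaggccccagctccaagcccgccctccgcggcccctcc

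The Cish window held 2 matches, TTCCTGGAA and TTCTTGGAA, whose first bases were bases 1 and 12 counted from the annotated start as base 1, so both lay at the very start of the annotated transcript. The Socs3 window held 1 match, TTCTTAGAA, which began 154 bases before the start. A match in these letters is not evidence of binding. In the comparisons below Cish passed as higher after DTx and Socs3 did not. Il2ra, with no match in its window, also passed as higher. So did Socs2 and, in CD4+ cells, Il2rb, neither of which had a window. Il2rg, Stat5a, Stat5b and Socs1, also without a match, did not pass.

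Each value below is in normalized reads, the read count of a gene divided by a size factor of its library, in which 1 read was worth between 0.661 and 1.37 units. Libraries held between 15947556 and 34140486 reads. A gene passed when its Benjamini-Hochberg adjusted p over all 12667 tested genes was under 0.05 in limma. Cd3e, a chain of the T cell receptor complex, was at 20019 or more in every library. Foxp3 is the defining Treg gene, and in these mice DTx kills the cells that express it. Foxp3 was at 1178, 1856 and 1896 in Treg PBS, at 0 in both CD4 PBS libraries, at 1.87, 0 and 0 in CD4 DTx and at no more than 12.1 in any CD8 library. Cd8a in the CD4 DTx libraries came to 0.256, 1.77 and 3.24% of the CD8 DTx mean, and Cd4 was at 2.43 and 0 in CD8 PBS and 413, 0 and 40.4 in CD8 DTx, against 10594.6 or more in every CD4+ library.

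Across the groups, Il2rg was the most abundant of the 3 receptor transcripts per length and Il2ra the least. Per kilobase of exon, Il2rg averaged 23843 ± 3205 in Treg PBS (SD, n = 3), Il2rb 7644 ± 935 and Il2ra 2841 ± 871. In CD4 PBS, on the same scale, Il2rg averaged 14533 ± 653 (SD, n = 2), Il2rb 942 ± 487 and Il2ra 33.5 ± 13.1. The order of the chains was the same in both cell types, but the distance between Il2ra and Il2rg was far wider in the conventional cells. Stat5b exceeded Stat5a in every library, by 1.96 to 3.24 times in normalized reads. Because Stat5a and Stat5b are close copies and only uniquely aligned reads were used, reads that fit both are lost, and their levels are less certain than those of the other members.

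**Figure D1:**
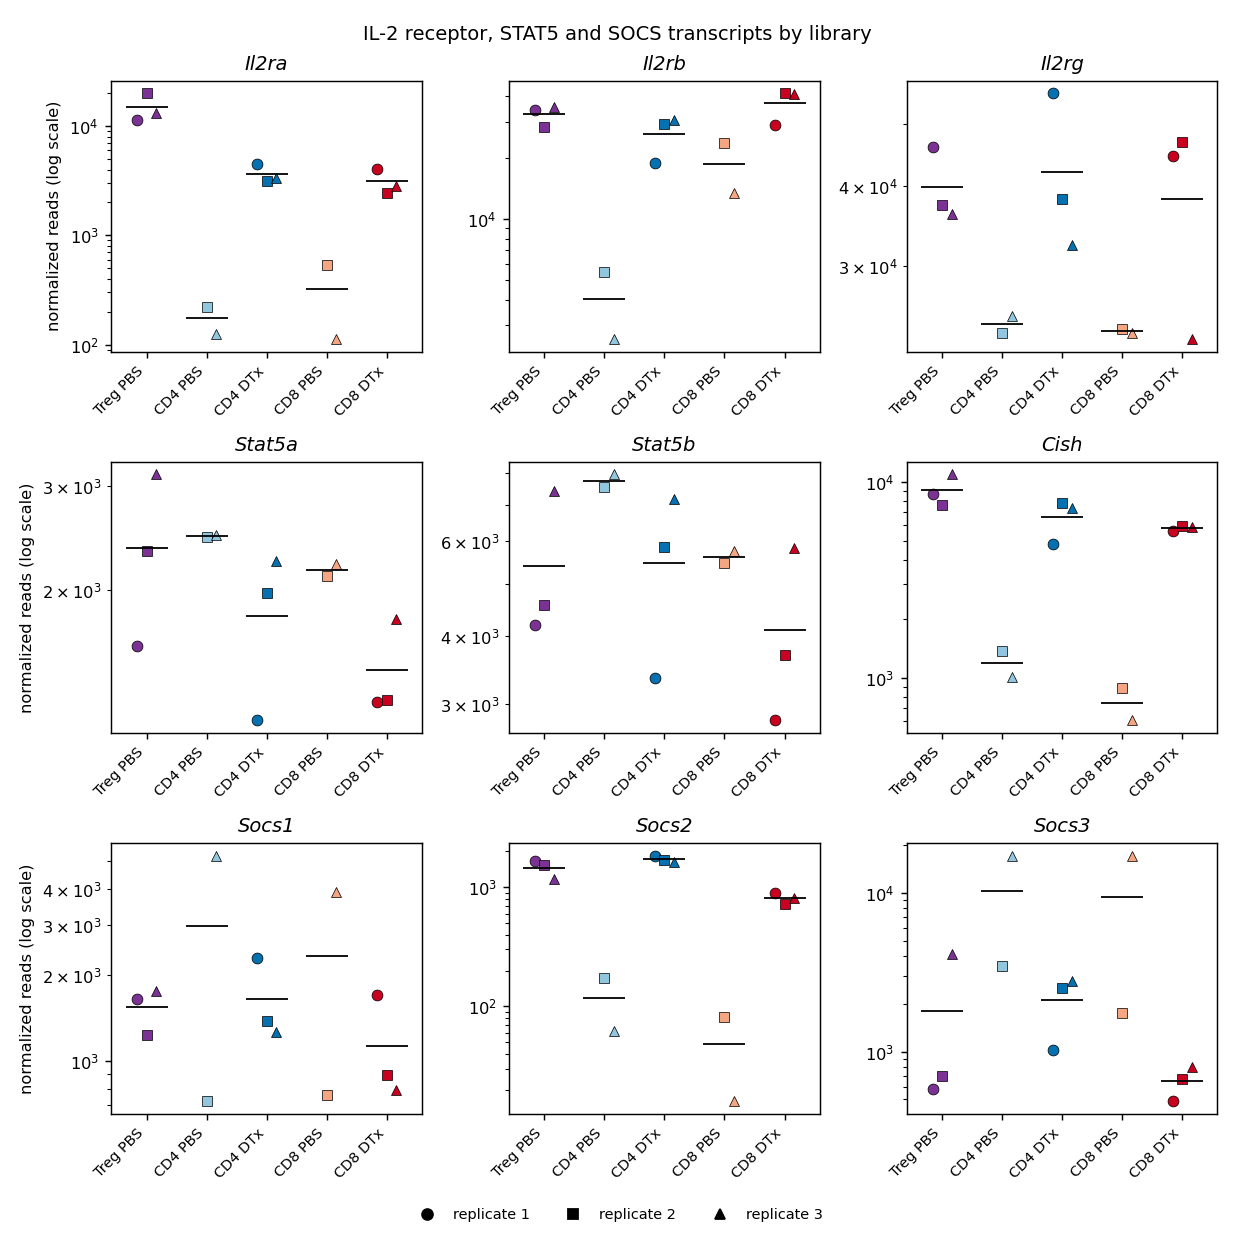
Normalized reads of the 9 members in each library on log scales, by group, with the symbol giving the replicate number and the bar the group mean. Il2ra, Cish and Socs2 lay far higher in Treg PBS and in both DTx groups than in CD4 PBS and CD8 PBS, whereas Socs1 and Socs3 were highest in the PBS libraries numbered 3 of the CD4 and CD8 groups.

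The main comparison asked what changed in CD4+ Tconv cells when Treg cells were removed. Of the 9 members, 4 rose after DTx, which were Il2ra, Il2rb, Cish and Socs2, and none fell. Of all tested genes, 12.7% passed in this comparison, with 8.64% higher after DTx and 4.08% lower. The median log2 fold change was 0.76 over the members and -0.04 over all tested genes. Adding the 4-fold threshold of the study left the same count of 4 members, where 6.85% of all tested genes passed.

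Il2ra, the high-affinity chain, was at 223 and 126 in the CD4 PBS libraries and at 4469, 3158 and 3351 in CD4 DTx. Every DTx library was thus far above both PBS libraries. The difference was 21.4-fold (log2 fold change 4.42, SE 0.52, adjusted p 0.000239), the widest of any member in this comparison. Il2rb, the signalling chain shared with IL-15, was at 5515 and 2563 in the CD4 PBS libraries, against 18745, 29279 and 30626 in CD4 DTx, again without overlap. It rose 6.81-fold (log2 fold change 2.77, SE 0.36, adjusted p 0.000424). Il2rg, the chain shared by all cytokines of the family, was at 23499.6 and 25041 in the CD4 PBS libraries, against 55842, 38196 and 32348 in CD4 DTx. The CD4 DTx libraries were above both PBS libraries but spread widely, and the difference did not pass (log2 fold change 0.76, SE 0.32, adjusted p 0.156).

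Neither of the transcription factor genes passed. Stat5a was at 2458 and 2477 in the CD4 PBS libraries, against 1208, 1982 and 2241 in CD4 DTx, so all 3 DTx libraries were below both PBS libraries, by a margin that did not pass (log2 fold change -0.49, SE 0.31, adjusted p 0.334). Stat5b was at 7526 and 7955 against 3346, 5849 and 7173, in the same arrangement (log2 fold change -0.57, SE 0.36, adjusted p 0.340). The 95% interval of the Stat5b difference, -1.36 to 0.21 on the log2 scale, leaves room for a fall of over 2-fold or for a small rise.

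Among the feedback genes, Cish and Socs2 rose, and Socs1 and Socs3 did not pass. Cish, the classical STAT5 target that encodes CIS, was at 1376 and 1004 in the CD4 PBS libraries, against 4844, 7769 and 7332 in CD4 DTx. The groups were well apart, and the difference was 5.53-fold (log2 fold change 2.47, SE 0.26, adjusted p 0.000152). Socs2, which encodes a relative of CIS known from growth hormone and STAT5 signalling, was at 174 and 62.1 in the CD4 PBS libraries, against 1837, 1677 and 1624 in CD4 DTx. Its 3 DTx values lay close together, 16.3-fold above PBS (log2 fold change 4.03, SE 0.56, adjusted p 0.000666), and the log2 fold change was 4.76 without CD4 PBS replicate 2 and 3.29 without replicate 3. Socs1 was at 722 and 5228 in the CD4 PBS libraries, against 2299, 1379 and 1263 in CD4 DTx. The PBS libraries enclosed all the DTx libraries, and the difference did not pass (log2 fold change -0.29, SE 0.76, adjusted p 0.840). Socs3 was at 3479 and 17050.4 in the CD4 PBS libraries, against 1027, 2529.6 and 2777 in CD4 DTx. All DTx values were below both PBS values, but replicate 3 of CD4 PBS alone set most of the distance, and the difference did not pass (log2 fold change -1.99, SE 1.01, adjusted p 0.232).

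In bulk RNA, more cells that express a gene and more RNA per cell cannot be told apart, and neither can a gain of activated cells and a change within the same cells.

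The same question was put to CD8+ T cells. There 3 of the 9 members rose after DTx, Il2ra, Cish and Socs2, and none fell, where 10.9% of all tested genes passed, with 7.4% higher and 3.47% lower. The median log2 fold change was 0.62 over the members and -0.03 over all tested genes.

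Il2ra was at 533 and 112 in the CD8 PBS libraries, against 4084, 2442 and 2812 in CD8 DTx, so even the lowest DTx library was several times above the higher PBS library (12.4-fold, log2 fold change 3.63, SE 0.52, adjusted p 0.00161). Cish was at 889 and 606 in the CD8 PBS libraries, against 5635, 5955 and 5874 in CD8 DTx. The DTx libraries were almost equal, 7.91-fold above PBS (log2 fold change 2.98, SE 0.26, adjusted p 0.000121). Socs2 was at 81.4 and 16.0 in the CD8 PBS libraries, against 894, 715 and 808 in CD8 DTx. It showed the largest difference of any member in this comparison, 21.5-fold (log2 fold change 4.42, SE 0.56, adjusted p 0.000952), from a PBS level that was low and differed between the 2 libraries by several times. Leaving out either PBS library moved both sizes without ending a call: without replicate 2 and without replicate 3 the log2 fold change of Il2ra was 4.75 and 2.51, and that of Socs2 was 5.56 and 3.28.

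Il2rb in CD8+ cells was already high with PBS, at 23630.4 and 13488, and was at 28919.7, 41446 and 41255 with DTx. The DTx libraries were all above the PBS libraries, but the 2.06-fold difference did not pass (log2 fold change 1.04, SE 0.36, adjusted p 0.0841). It passed with DESeq2 on the recovered reads (adjusted p = 0.0360) and with the replicate number as a block in limma (adjusted p = 0.0373). Natural killer (NK) cells carry much CD122 and lack TCRβ, on which the study's sorts of tumor T cells gated, yet their markers were present and varied between these libraries. Ncr1, a receptor that defines NK cells, was at 956 and 25.3 in CD8 PBS and 17.6, 2147 and 599 in CD8 DTx, and Klrb1c was at 2113 and 217 in the first group and at 292, 2964 and 1265 in the second. Both NK markers were in the table, and their summed level ranged from 243 to 3069 in CD8 PBS and from 309 to 5111 in CD8 DTx, whereas CD4 PBS held 45.6 to 275 and CD4 DTx held 175 to 534. The 3 CD8 libraries with high NK markers were those with the highest Il2rb of their group or close to it, and the part of NK transcripts in the Il2rb result was not tested.

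Il2rg was at 23860.0 and 23513 in the CD8 PBS libraries, against 44574, 46879 and 23014 in CD8 DTx, with replicate 3 of CD8 DTx below both PBS libraries (log2 fold change 0.62, SE 0.32, adjusted p 0.242). Leaving that library out gave a log2 fold change of 0.95 with adjusted p 0.0268 in limma. Stat5a was at 2115 and 2217 against 1299, 1309 and 1793 after DTx, with all DTx values lower (log2 fold change -0.58, SE 0.31, adjusted p 0.252). Stat5b was at 5459 and 5745 against 2796, 3695 and 5808, and its groups overlapped (log2 fold change -0.52, SE 0.36, adjusted p 0.379). As in CD4+ cells, neither STAT5 gene passed in either direction.

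Socs1 was at 759 and 3891 in the CD8 PBS libraries, against 1707, 889.9 and 789 in CD8 DTx (log2 fold change -0.69, SE 0.76, adjusted p 0.582). The PBS values again enclosed the DTx values. Socs3 was at 1751 and 17169.8 in the CD8 PBS libraries, against 485, 672 and 805 in CD8 DTx. Each DTx library was below both PBS libraries, by 8.55-fold on the model's scale, and the difference did not pass in limma (log2 fold change -3.10, SE 1.01, adjusted p 0.0696). It did pass in edgeR (adjusted p = 0.0370) and DESeq2 (adjusted p = 0.00323) on the recovered reads, with a replicate block in limma (-2.71, adjusted p = 0.0163) and without CD8 PBS replicate 2 (-4.74, adjusted p = 0.0200).

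**Figure D2:**
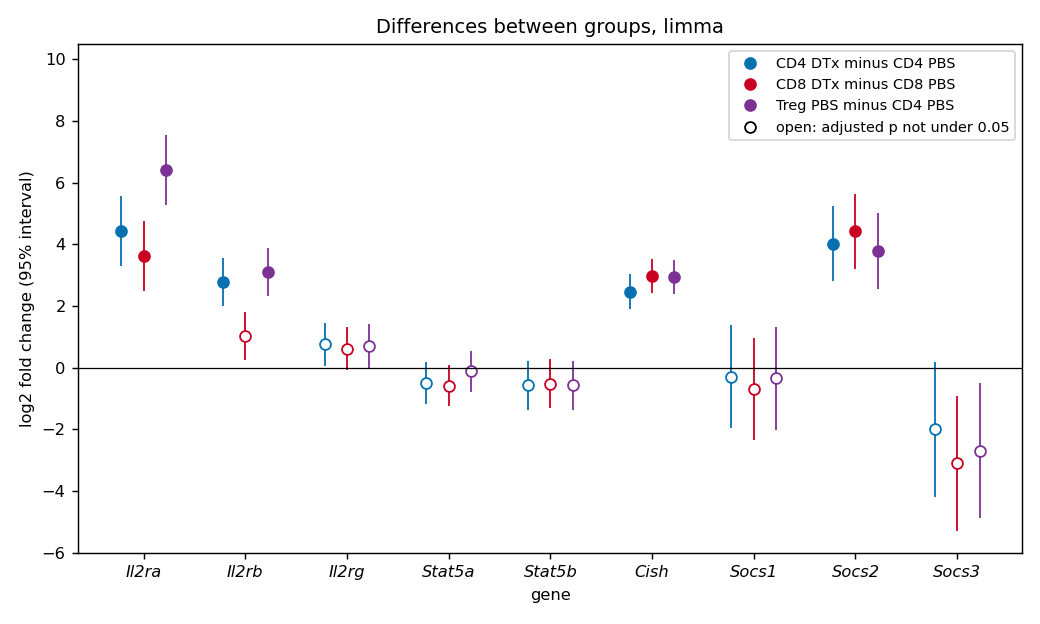
Log2 fold changes of the 9 members with 95% intervals from limma, for CD4 DTx against CD4 PBS, CD8 DTx against CD8 PBS and Treg PBS against CD4 PBS. Filled points passed at an adjusted p under 0.05; Il2ra, Cish and Socs2 are filled in all 3 comparisons, Il2rb in 2 of them, and the intervals of Socs1 and Socs3 are the widest.

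Treg cells set the reference for a population that consumes IL-2. Against CD4 PBS, 4 of the 9 members were higher in Treg PBS and none passed as lower, where 20.4% of all tested genes passed, with 13.5% higher and 6.91% lower. The 4 were Il2ra, Il2rb, Cish and Socs2. Il2ra was at 11400.5, 19950.0 and 13052 in Treg PBS, 85.2-fold above CD4 PBS (log2 fold change 6.41, SE 0.52, adjusted p 1.71e-05). Il2rb was at 34484, 28185 and 35634, 8.67-fold above (log2 fold change 3.12, SE 0.36, adjusted p 0.000118). Cish was at 8686, 7662 and 10933, 7.65-fold above (log2 fold change 2.93, SE 0.26, adjusted p 2.45e-05). Socs2 was at 1663, 1531 and 1178, 13.8-fold above (log2 fold change 3.78, SE 0.56, adjusted p 0.000611), with log2 fold changes of 4.52 and 3.05 without CD4 PBS replicates 2 and 3. None of these Treg values overlapped with CD4 PBS. This comparison and that of CD4 DTx share the CD4 PBS libraries, so the recurrence of the same 4 names in both is not independent.

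The remaining members did not pass between Treg PBS and CD4 PBS. Il2rg was at 45954, 37381 and 36116 in Treg PBS, above both CD4 PBS libraries (log2 fold change 0.71, SE 0.32, adjusted p 0.140). Stat5a was at 1614, 2329 and 3134 and Stat5b at 4199, 4556 and 7416, each with replicate 3 the highest (log2 fold change -0.12, SE 0.31, adjusted p 0.820 for Stat5a, and log2 fold change -0.57, SE 0.36, adjusted p 0.281 for Stat5b). Socs1 was at 1651, 1228 and 1759, between the CD4 PBS values (log2 fold change -0.35, SE 0.76, adjusted p 0.780). Socs3 was at 584, 701 and 4109.6, with replicate 3 far above the other Treg libraries and within the CD4 PBS range (log2 fold change -2.69, SE 1.01, adjusted p 0.0785). Without Treg PBS replicate 3 the Socs3 difference was -3.59 and passed (adjusted p = 0.0226 in limma), as it did with a replicate block (-2.30, adjusted p = 0.0212). Fitted on these groups alone, Il2rg passed too (adjusted p = 0.0404).

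Set directly against Treg PBS, only Il2ra among the members passed, in both DTx groups. Of the 9, 1 was lower in CD4 DTx and none higher, where 7.91% of all tested genes passed (3.36% higher and 4.55% lower). In CD8 DTx also 1 was lower and none higher, where 8.6% passed (3.88% higher and 4.71% lower). No member passed the 4-fold threshold in CD4 DTx in limma, where 4.01% of all tested genes did. Il2ra was 3.97-fold lower in CD4 DTx (log2 fold change -1.99, SE 0.47, adjusted p 0.0221) and 4.73-fold lower in CD8 DTx (log2 fold change -2.24, SE 0.47, adjusted p 0.00986). As a share of the Treg PBS mean, Il2ra reached 30.2, 21.3 and 22.6% in the 3 CD4 DTx libraries and 27.6, 16.5 and 19.0% in CD8 DTx, after 1.51 and 0.852% in CD4 PBS and 3.60 and 0.757% in CD8 PBS. Foxp3 in the same CD4 DTx libraries was at no more than 0.114% of its Treg PBS mean, and in CD8 DTx at no more than 0.737%. The summed level of all 3 Treg markers in the table, Foxp3, Ikzf2 and Lrrc32, was 174 to 298 in CD4 PBS, 517 to 1337 in CD4 DTx, 291 to 643 in CD8 PBS and 531 to 750.2 in CD8 DTx, against 10511 to 16128 in Treg PBS. Most of it outside Treg PBS was Ikzf2, at 289.7 and 157 in CD4+ cells with PBS and 1335, 476 and 843 with DTx, so every DTx library was above both PBS libraries, as for Il2ra. The part of Ikzf2-expressing cells in the Il2ra result was not tested. The Il2ra call against Treg PBS was not firm: leaving out replicate 2 of Treg PBS, the highest, gave an adjusted p of 0.0982 for CD4 DTx and 0.0531 for CD8 DTx, and leaving out Treg PBS replicate 3, CD4 DTx replicate 2 or CD4 DTx replicate 3 also ended it in CD4 DTx, with adjusted p 0.0505, 0.0686 and 0.0679.

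For the other members that rose, no difference from Treg PBS passed. The log2 difference of Il2rb was -0.35 in CD4 DTx (95% interval -1.04 to 0.35) and 0.17 in CD8 DTx (-0.52 to 0.87). That of Cish was -0.47 (-0.96 to 0.03) and -0.63 (-1.13 to -0.13), with all 3 CD8 DTx libraries below all Treg PBS libraries. That of Socs2 was 0.25 (-0.85 to 1.34) and -0.85 (-1.94 to 0.25), in the same arrangement in CD8 DTx. A p that misses the threshold does not show that these levels were equal, and the intervals bound the differences only to within about 2-fold to 4-fold. Among Il2rg, Stat5a, Stat5b, Socs1 and Socs3, the log2 differences from Treg PBS lay between -0.38 and 0.70 in CD4 DTx and between -0.89 and -0.12 in CD8 DTx, and none passed in that fit. With a replicate block, Stat5a passed as lower in CD8 DTx (-0.65, adjusted p = 0.0258).

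Between the lineages, Il2rb was the only member that passed, and only with PBS. In PBS-treated mice, 1 of the 9 members was higher in CD8+ than in CD4+ cells and none lower, where 1.08% of all tested genes passed (0.837% higher and 0.245% lower). Il2rb was 4.75-fold higher in CD8 PBS, with no overlap (log2 fold change 2.25, SE 0.39, adjusted p 0.0150). Leaving out the replicates numbered 3 of the PBS groups ended this call (log2 fold change 2.10, adjusted p = 0.138), as did leaving out CD4 PBS replicate 3 alone (1.69, adjusted p = 0.143), CD8 PBS replicate 2 alone (1.84, adjusted p = 0.171) and fitting only the 4 libraries (adjusted p = 0.103). Of the 4 libraries, CD8 PBS replicate 2 had the highest Il2rb and the highest NK markers, with Ncr1 at 956 and Klrb1c at 2113. The part of NK transcripts in this Il2rb result was not tested. The log2 differences of the other members, CD8 PBS minus CD4 PBS, ranged from -1.49 for Socs2 to 0.54 for Il2ra, and Cish stood at -0.68, Stat5b at -0.47, Stat5a at -0.19, Socs1 at -0.18, Socs3 at -0.49 and Il2rg at -0.03.

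After DTx no member passed between CD8+ and CD4+ cells in limma, edgeR or DESeq2, where 1.64% of all tested genes passed in limma. In that limma fit, which ignores the pairing of libraries by number, no member reached an unadjusted p under 0.05, where 11.4% of all tested genes did. The number of all genes that passed here was 208, and 414 with the replicate number as a block, under which still no member passed. Without the block Socs2 came nearest, at 1837, 1677 and 1624 in CD4 DTx against 894, 715 and 808 in CD8 DTx. The libraries did not overlap, and the log2 difference was -1.09 (95% interval -2.18 to 0.0014, adjusted p 0.439). With the replicate number as a block, the 95% intervals of Socs3, Socs2 and Stat5b lay below 0. They were -2.79 to -0.40 for Socs3 (limma adjusted p = 0.163), -2.01 to -0.17 for Socs2 (adjusted p = 0.218) and -0.78 to -0.04 for Stat5b (adjusted p = 0.262). The share of all tested genes with such an interval was not counted. For Il2ra the difference was -0.25 (blocked interval -1.15 to 0.65), for Il2rb 0.52 (-0.10 to 1.14) and for Cish -0.16 (-0.62 to 0.30). Within the 3 pairs of libraries with the same number, Il2rb was higher in CD8+ cells in 3 of 3, and Il2ra, Stat5b, Socs1, Socs2 and Socs3 were lower in 3 of 3. The share of all tested genes that agreed in 3 of 3 pairs was not counted either, and none of these members passed. The differences of Il2rg, Stat5a, Stat5b, Socs1 and Socs3 lay between -1.59 for Socs3 and -0.17 for Il2rg.

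Whether DTx acted differently in the 2 lineages was tested as an interaction, the CD4 effect minus the CD8 effect. No member passed in limma, edgeR or DESeq2, where 0.0474% of all tested genes passed in limma, and 1 member, Il2rb, had an unadjusted p under 0.05, as did 4.05% of all tested genes. The DTx effect on Il2rb was 1.73 larger in CD4+ cells on the log2 scale (SE 0.51, limma adjusted p = 0.527). So Il2rb passed in CD4+ and not in CD8+ cells, but a difference between the effects was not established. The interaction was 0.79 for Il2ra (95% interval -0.81 to 2.40), -0.52 for Cish (-1.30 to 0.27) and -0.40 for Socs2 (-2.12 to 1.33). For Il2rg, Stat5a, Stat5b, Socs1 and Socs3 it lay between -0.06 and 1.10.

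The balance of the receptor chains was followed within each library, where scaling cancels. Il2ra came to 33.1, 70.8 and 36.6% of Il2rb reads in Treg PBS libraries, and to 4.04 and 4.92% with CD4 PBS. It was 23.8, 10.8 and 10.9% of Il2rb in CD4 DTx, 2.26 and 0.830% in CD8 PBS, and 14.1, 5.89 and 6.82% in CD8 DTx. In each lineage every DTx library was above both PBS libraries and below all Treg PBS libraries. Corrected for the length of the exons, the same share was 27.2, 58.3 and 30.1% in Treg PBS and 19.6, 8.88 and 9.01% in CD4 DTx. Il2rb as a share of Il2rg was 23.5 and 10.2% in CD4 PBS and 33.6, 76.7 and 94.7% in CD4 DTx, with no overlap. In CD8+ cells this second share was 99.0 and 57.4% with PBS and 64.9, 88.4 and 179% with DTx, and the groups overlapped.

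**Figure D3:**
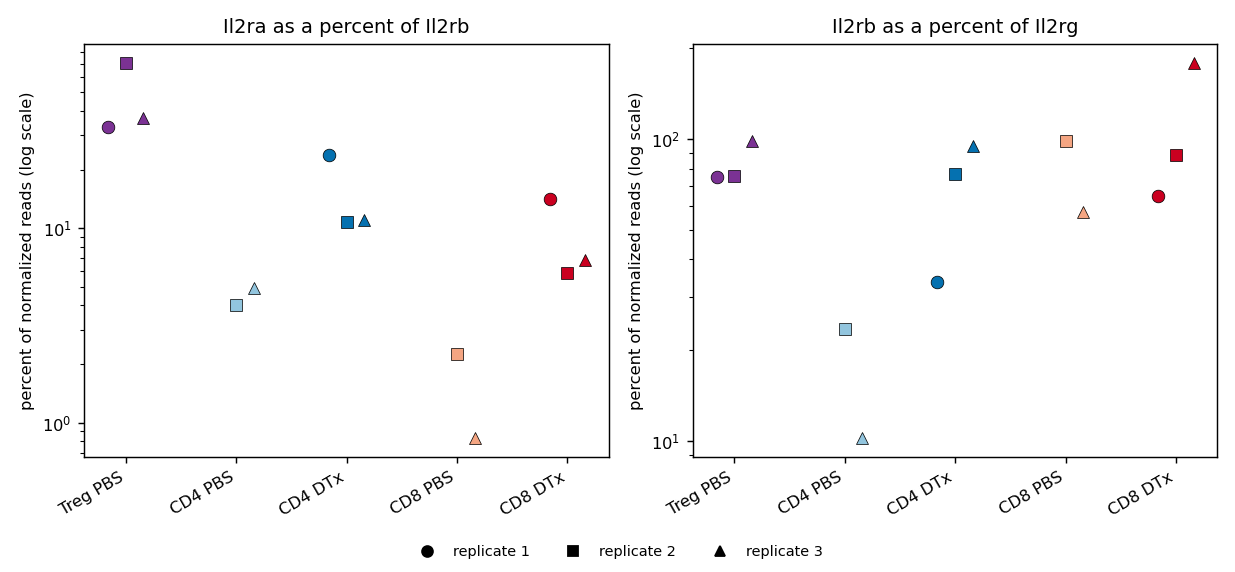
Il2ra reads as a percent of Il2rb reads (left) and Il2rb reads as a percent of Il2rg reads (right) in each library, on log scales, with the symbol giving the replicate number. On the left the groups fall in the order Treg PBS, CD4 DTx, CD8 DTx, CD4 PBS, CD8 PBS by their means, with CD4 DTx and CD8 DTx overlapping; on the right CD4 PBS lies below all other groups.

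The members were also ranked by mean level across the 5 groups. How often neighbouring groups overlapped over all tested genes was not counted. For Il2ra the order was Treg PBS, CD4 DTx, CD8 DTx, CD8 PBS, CD4 PBS, with overlap between the DTx groups and between the PBS-treated Tconv groups. For Cish it was Treg PBS, CD4 DTx, CD8 DTx, CD4 PBS, CD8 PBS, and the first 3 overlapped in neighbouring pairs. For Socs2 it was CD4 DTx, Treg PBS, CD8 DTx, CD4 PBS, CD8 PBS, with overlap at both ends. For Il2rb it was CD8 DTx, Treg PBS, CD4 DTx, CD8 PBS, CD4 PBS, and only CD4 PBS stood apart from its neighbour. For Il2rg, Stat5a, Socs1 and Socs3 every pair of neighbours overlapped, and for Stat5b only CD4 PBS, the highest, stood apart from the next group, CD8 PBS.

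The spread of Socs1 and Socs3 within groups followed the replicates numbered 3 of the PBS-treated mice. Socs3 was at 17050.4 in CD4 PBS replicate 3, at 17169.8 in CD8 PBS replicate 3 and at 4109.6 in Treg PBS replicate 3, each several times the other libraries of its group. Socs1 was likewise highest in the first pair, at 5228 and 3891, while Treg PBS replicate 3, at 1759, was close to its group. The same libraries were highest in immediate early genes, which T cells switch on quickly after stimulation or handling. Fos was at 427, 2378 and 38019 in Treg PBS. It was at 5052 and 54781 in CD4+ cells of PBS-treated mice and 3397 and 54646 in CD8+ cells of PBS-treated mice, and at 635, 1639 and 3829.5 in CD4 DTx and 271, 351 and 889.7 in CD8 DTx. The summed level of Fos, Jun, Egr1 and Dusp1, all 4 in the table, ranged from 9609 to 103630 in Treg PBS, from 19004 to 122260 in CD4 PBS and from 12378 to 110357 in CD8 PBS, against 5210 to 15446 in CD4 DTx and 2947 to 6280 in CD8 DTx. The 4 genes were highest in the PBS replicate 3 of each group, as Socs3 was. Between treatments they were less uniform, since Egr1 was at 2483 and 10951 with PBS and 3025, 3449.8 and 3232 with DTx in CD4+ cells and at 1646 and 7397 and 1837, 2039 and 2264 in CD8+ cells, overlapping in both, and Dusp1 overlapped in CD4+ cells. Their part in the Socs1 and Socs3 results was not tested.

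**Figure D4:**
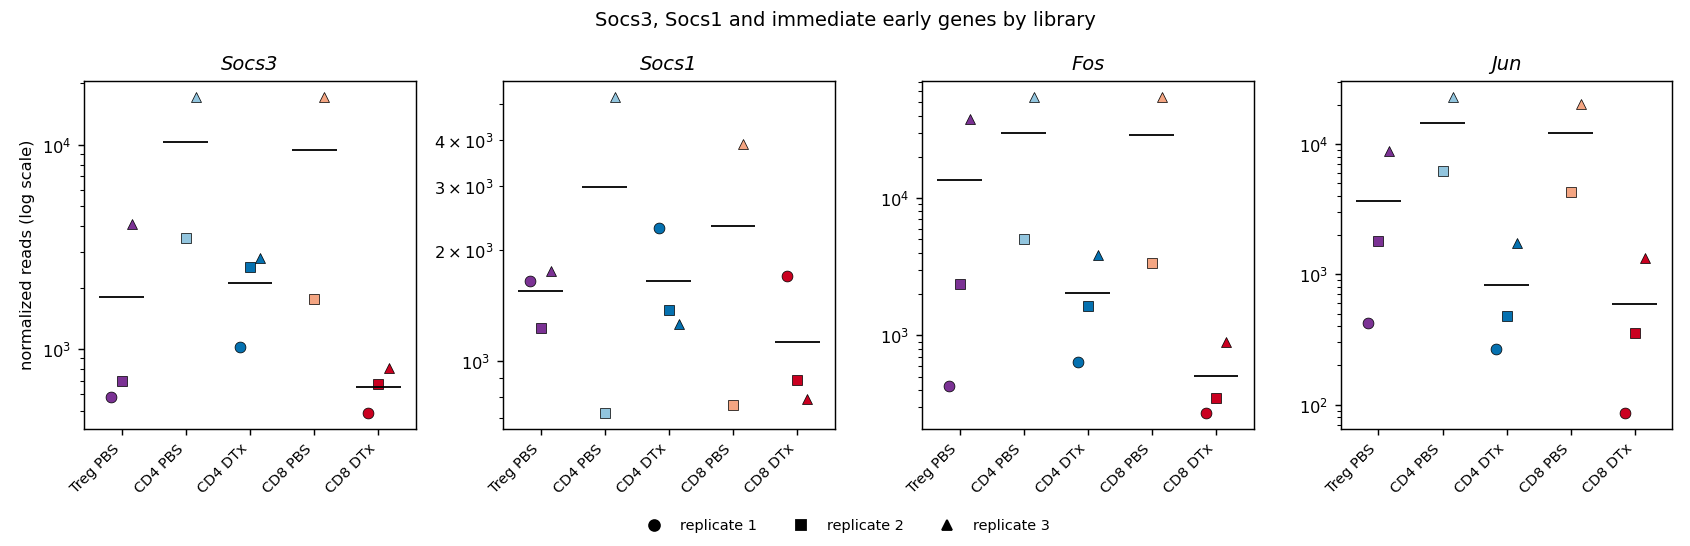
Normalized reads of Socs3, Socs1, Fos and Jun in each library on log scales, by group, with the symbol giving the replicate number and the bar the group mean. The triangles of the PBS groups, replicate 3, are the highest of their group in each panel, and both DTx groups lie low for Fos and Jun.

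Without those 3 PBS libraries, a choice made after their immediate early genes were seen, the counts of members that rose were the same. In CD4+ cells 4 members passed after DTx, with log2 fold changes of 4.02 for Il2ra, 2.22 for Il2rb, 2.24 for Cish and 3.29 for Socs2. In CD8+ cells 3 passed, with 2.51 for Il2ra, 2.71 for Cish and 3.28 for Socs2. Between Treg PBS and CD4 PBS 5 passed, the fifth being Socs3, which was lower in Treg PBS (-2.44, adjusted p = 0.0377 in limma). Socs1 changed sign without them, to 1.14 in CD4+ and 0.48 in CD8+ cells, and Socs3 moved to -0.85 and -1.45, none of which passed. Each of these fits leaves CD4 PBS and CD8 PBS with 1 library, which is assumed to vary like the other groups. Over all tested genes, 597 rather than 1612 passed in CD4+ cells and 124 rather than 1377 in CD8+ cells.

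The rest of the pathway was read from hand-written lists of 45 genes, all tested, of which Il7r stood in 2 lists. The lists were written with earlier results of these data known, so their counts are descriptions only. In CD4+ cells 7 of the 45 were higher after DTx and 7 lower, and in CD8+ cells 4 were higher and 5 lower. Of all tested genes 8.64% were higher and 4.08% lower in CD4+ cells, and 7.4% and 3.47% in CD8+ cells. The 4 higher in CD8+ cells were 8.89% of the 45, near the share of all genes. Many of these calls did not hold with fewer libraries: leaving out 1 library at a time ended 10 of the 14 in CD4+ cells and 6 of the 9 in CD8+ cells. The Prdm1 and Tcf7 calls in CD4+ cells ended whichever library was left out, with log2 fold changes of 1.78 to 1.93 and -2.90 to -2.51. Those that never ended were Gzmb, Tnfrsf4, Tnfrsf18 and Il6st in CD4+ cells and Gzmb, Prdm1 and Il6ra in CD8+ cells. Without the PBS libraries numbered 3, 6 of the 14 and 2 of the 9 still passed. The median log2 fold change of the 45 was 0.01 in CD4+ and 0.13 in CD8+ cells. Il2 itself was scarce. It was at 64.2 and 21.1 in CD4 PBS, at 114, 52.1 and 107 in CD4 DTx and 12.7, 11.9 and 2.35 in Treg PBS. In CD8+ cells it was at 36.4 and 8.0 with PBS and at 79.4, 31.8 and 17.5 with DTx. The DTx and PBS libraries overlapped in both lineages, and neither difference passed (log2 fold change 1.20, SE 0.99, adjusted p 0.470 in CD4+ cells, and log2 fold change 0.99, SE 0.99, adjusted p 0.539 in CD8+ cells). Il2 was higher in CD4 DTx than in Treg PBS (log2 fold change 3.37, SE 0.88, adjusted p 0.0365), a call that leaving out any 1 of the 6 libraries ended (adjusted p 0.0555 to 0.110). Il15, whose protein signals through the same beta and gamma chains, was at no more than 49.1 in any library and did not pass. Il15ra, its presenting chain, rose 2.16-fold in CD4+ cells (log2 fold change 1.11, SE 0.34, adjusted p 0.0486) and was 1.91-fold higher in CD8+ cells without passing (adjusted p 0.100). Leaving out any of 4 of the 5 CD4 libraries ended the first call (adjusted p 0.0934 to 0.256).

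Of the 8 kinases and adaptors, none passed after DTx in either lineage, and the median log2 fold change was 0.03 in CD4+ and 0.10 in CD8+ cells. Jak1 was at 42223 to 47823 in CD4+ cells with PBS, against 31092 to 35207 with DTx (log2 fold change -0.44, SE 0.22, adjusted p 0.222), and Jak3 at 5725 to 6007 and 4876 to 10264 (log2 fold change 0.44, SE 0.35, adjusted p 0.458). Between Treg PBS and CD4 PBS, Jak1 was lower in Treg cells (log2 fold change -0.82, SE 0.22, adjusted p 0.0187), as was Pik3cd, a catalytic subunit of PI3-kinase (log2 fold change -2.35, SE 0.50, adjusted p 0.00583). Leaving out 1 library ended both calls (highest adjusted p 0.141 for Jak1 and 0.0546 for Pik3cd). Of the 10 other SOCS genes and brakes, none passed after DTx in either lineage (median log2 fold change 0.12 and 0.16). In CD4+ and CD8+ cells the log2 fold changes were 0.38 and 0.69 for Socs4, -0.69 and -2.00 for Socs5, -0.19 and -0.41 for Socs6, and 3.40 and 0.91 for Socs7. The Socs7 value in CD4+ cells rested on CD4 PBS replicate 2, which was at 0, and was 0.22 without it. Ptpn2, a phosphatase that acts on JAKs and STAT5, had a log2 fold change of 0.13 (SE 0.26) in CD4+ and 0.22 (SE 0.26) in CD8+ cells.

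Of the 4 partners of the common gamma chain, Il4ra and Il21r fell in CD4+ cells and Il4ra in CD8+ cells (median log2 fold change of the 4, -0.54 and -0.63). Of all tested genes 4.08% were lower in CD4+ cells and 3.47% in CD8+ cells. Il4ra, the IL-4 receptor chain, went from 15303 and 12894 to 2339, 6551 and 5555 in CD4+ cells, 3.19-fold lower (log2 fold change -1.67, SE 0.41, adjusted p 0.0177), and was 4.72-fold lower in CD8+ cells (log2 fold change -2.24, SE 0.41, adjusted p 0.00517). Il21r was 1.82-fold lower in CD4+ cells (log2 fold change -0.86, SE 0.24, adjusted p 0.0366). Each of these Il4ra and Il21r calls was among those that leaving out 1 library ended. Il7r, which IL-2 is known to lower, did not pass after DTx (log2 fold change -0.22, SE 0.31, adjusted p 0.676 in CD4+ and log2 fold change -0.58, SE 0.31, adjusted p 0.246 in CD8+ cells), although Treg PBS lay below CD4 PBS (log2 fold change -1.57, SE 0.31, adjusted p 0.00355, and adjusted p 0.0551 without CD4 PBS replicate 2).

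Of the 16 genes that IL-2 and STAT5 are known to raise, 6 were higher and 2 lower in CD4 DTx, and 4 were higher and 1 lower in CD8 DTx, with median log2 fold changes of 0.31 and 0.67 (all tested genes: 8.64% higher and 4.08% lower in CD4+ cells, and 7.4% and 3.47% in CD8+ cells). Gzmb, the cytotoxic protease granzyme B, showed the largest rise in both. It went from 547 and 131 to 13630.3, 8324 and 10438 in CD4+ cells, 39.4-fold (log2 fold change 5.30, SE 0.60, adjusted p 0.000188), and from 4779.5 and 1072 to 104756, 80348 and 65338 in CD8+ cells, 36.2-fold (log2 fold change 5.18, SE 0.60, adjusted p 0.000533). Without PBS replicate 2 and without PBS replicate 3 the log2 fold change was 6.33 and 4.27 in CD4+ cells and 6.26 and 4.10 in CD8+ cells, all of which passed. NK cells are known for granzyme B and perforin too, and the NK marker values of these libraries are those given above with Il2rb. Their part in the Gzmb and Prf1 results was not tested. Tnfrsf4 (OX40, 13.3-fold), Nfil3 (6.66-fold) and Tnfrsf18 (GITR, 4.62-fold) rose in CD4+ cells, with limma adjusted p 0.00108, 0.00550 and 0.00152. Without CD4 PBS replicates 2 and 3 the log2 fold change of Tnfrsf4 was 4.60 and 2.86, and that of Nfil3 was 1.88, which did not pass (adjusted p = 0.0864), and 3.59. Prdm1, which encodes the transcription factor Blimp-1, rose 8.80-fold in CD8+ cells (log2 fold change 3.14, SE 0.52, adjusted p 0.00329), as did the cell cycle gene Ccnd3 (2.37-fold, log2 fold change 1.24, SE 0.25, adjusted p 0.00780), and both passed in CD4+ cells too. Leaving out 1 library at a time ended the Prdm1 call in CD4+ cells in 5 of 5 fits. The Ccnd3 call ended in 2 of 5 such fits in CD4+ cells and in 1 of 5 in CD8+ cells. Without CD8 PBS replicates 2 and 3 the Prdm1 value in CD8+ cells was 4.43 and 1.84. Perforin (Prf1) rose in CD8+ cells (log2 fold change 1.76, SE 0.33, adjusted p 0.00562) and fell in CD4+ cells (log2 fold change -1.38, SE 0.33, adjusted p 0.0157). Without CD8 PBS replicate 3 the Prf1 rise did not pass (adjusted p = 0.115), nor did the fall without either CD4 PBS library.

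Myc, on the same list, fell in both lineages, 4.09-fold in CD4+ (log2 fold change -2.03, SE 0.46, adjusted p 0.0125) and 3.50-fold in CD8+ cells (log2 fold change -1.81, SE 0.46, adjusted p 0.0277), and among the Tconv groups it was highest in the PBS replicates numbered 3, at 6068 in CD4 PBS and 8323 in CD8 PBS. Without those libraries in turn, the log2 fold change was -1.22 (adjusted p = 0.199 in limma) and -1.14 (adjusted p = 0.361). Pim1, a kinase gene that STAT5 induces, did not pass, with a log2 fold change of 0.13 (SE 0.52) in CD8+ and -0.0036 (SE 0.52) in CD4+ cells. The survival gene Bcl2 stood at -1.13 (SE 0.52) in CD4+ and -1.25 (SE 0.52) in CD8+ cells and did not pass.

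Of the 5 genes that IL-2 and STAT5 are known to lower, 3 fell and none rose in each lineage, with median log2 fold changes of -2.71 and -2.79. Of all tested genes 4.08% were lower and 8.64% higher in CD4+ cells, and 3.47% and 7.4% in CD8+ cells. This list, like the others, was written with earlier results of these data known. The genes that fell were Il6ra and Il6st, the chains of the IL-6 receptor, and Tcf7, a transcription factor of naive and memory T cells. Il6ra went from 2779.6 and 2068 to 148, 233 and 419 in CD4+ cells (log2 fold change -3.29, SE 0.75, adjusted p 0.0120) and from 1654 and 1779.5 to 31.4, 46.2 and 60.6 in CD8+ cells (log2 fold change -5.24, SE 0.75, adjusted p 0.00155). Il6st went from 8750.2 and 7971 to 219.8, 796 and 1334 (log2 fold change -3.76, SE 0.61, adjusted p 0.00161) and from 7639 and 8676 to 662, 701 and 1123 (log2 fold change -3.34, SE 0.61, adjusted p 0.00518). Tcf7 fell 6.52-fold in CD4+ cells and 6.90-fold in CD8+ cells (limma adjusted p 0.0242 and 0.0254). The libraries of DTx and PBS did not overlap for any of these genes. Leaving out 1 library at a time ended the Tcf7 calls in both lineages, the Il6ra call in CD4+ cells and the Il6st call in CD8+ cells. Bcl6 did not pass (log2 fold change -0.20 in CD4+ and -0.10 in CD8+ cells).

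**Figure D5:**
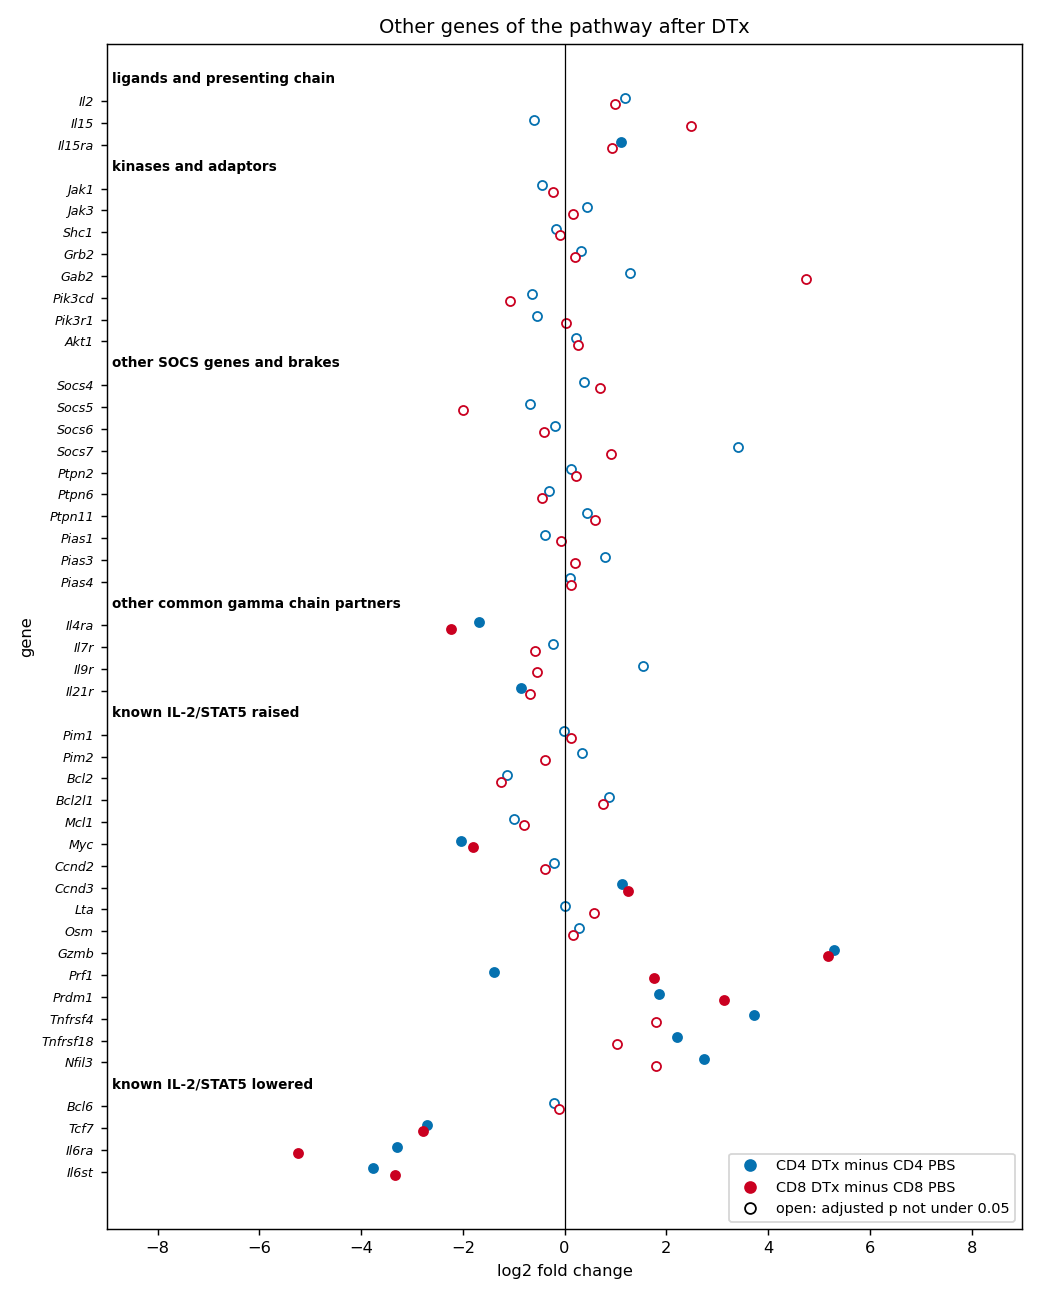
Log2 fold changes after DTx of the 45 other pathway genes, in CD4+ and CD8+ cells, grouped by list, with Il7r drawn only under the common gamma chain partners. Filled points passed at an adjusted p under 0.05; no kinase, adaptor, further SOCS gene or brake is filled, whereas Gzmb, Il6ra, Il6st and Tcf7 are filled in both lineages.

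In the other comparisons, Treg PBS was above CD4 PBS in 7 of the 45 and below it in 9, led by Gzmb and by Tcf7, where 13.5% of all tested genes were higher and 6.91% lower, and leaving out 1 library ended 7 of these 16 calls. Against Treg PBS, 6 were higher and 3 lower in CD4 DTx (all tested genes 3.36% and 4.55%), and likewise in CD8 DTx (3.88% and 4.71%), and leaving out 1 library ended 7 of the 9 calls in CD4 DTx and 4 of the 9 in CD8 DTx. Pim2 was 5.83-fold above Treg PBS in CD4 DTx and 7.54-fold above it in CD8 DTx, while Tnfrsf4 was 3.86-fold and 30.2-fold below it, the first of which was among the calls that ended. Between CD8 PBS and CD4 PBS Gzmb passed and no other of the 45, and between CD8 DTx and CD4 DTx 2 were higher (Prf1 and Gzmb) and 2 lower (Il9r and Tnfrsf4), of which Prf1 alone passed with any 1 library left out.

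Markers of cells that the sort should exclude were present at low levels and moved with treatment for some lists. The summed level of the melanocyte markers, 4 of 5 in the table, lay between 435 and 448 for CD4 PBS, against 89.0 to 170 for CD4 DTx, and 171 to 629 in CD8 PBS and 60.7 to 125 in CD8 DTx. The summed level of the dendritic cell markers, all 3 in the table, ran the other way, from 39.0 to 172 in CD4 PBS to 375 to 610 in CD4 DTx, and from 151 to 340.2 to 599 to 693 in CD8+ cells. That rise was in Xcr1 alone, at 73.8 and 21.8 in CD4 PBS and 604, 374 and 528 in CD4 DTx, and at 139 and 96.0 in CD8 PBS and 657, 604 and 478 in CD8 DTx. Zbtb46 was at 76.5 and 17.2 and then 4.68, 1.02 and 47.4 in CD4+ cells, and at 163 and 54.7 and then 35.1, 11.6 and 121 in CD8+ cells. Flt3 was at no more than 41.2 in any library. The myeloid markers, 6 of 7 in the table, ranged from 1107 to 1279 in CD4 PBS and between 88.8 and 2096 in CD4 DTx, and from 648 to 1929 in CD8 PBS and 1825 to 2748 in CD8 DTx. Among them Itgam was at 205 and 13.3 with PBS and 513, 1554 and 1606 with DTx in CD8+ cells, and Cd68 at 273 and 124 and 1055, 1034 and 607, each with every DTx library above both PBS libraries. Lyz2 went the other way in CD8+ cells, from 1321 and 497 with PBS to 195, 51.0 and 198 with DTx, without overlap. Csf1r, Cd14 and Adgre1 overlapped between treatments there. The erythroid markers, 2 of 4 in the table, ranged from 902 to 5967 in CD4 PBS, with which CD4 DTx overlapped from 0 upward, and from 1483 to 6177 in CD8 PBS and 16.6 to 709 in CD8 DTx, which did not. The B cell markers, all 3 in the table, stayed at or below 262 in every library. The part of such cells in the results for Il2ra and the other members was not tested.

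The genes whose pattern was most like that of Il2ra over the 13 libraries, by Pearson r of log2 values, were Stx11 (0.986), Unc119 (0.983), Cyfip1 (0.982), Eea1 (0.980) and Aldoc (0.980). For Cish they were Gas2l1 (0.981), Aplp1 (0.980), Swap70 (0.980), Crmp1 (0.980) and Ttc39c (0.973). These are descriptions over 13 libraries of 5 groups, which share the separation of the groups, and neither Il2ra nor Cish was among the 5 genes nearest the other.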

How the data were processed

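RNA sequencing libraries of sorted tumor T cells (13 libraries, 5 groups) were analysed. As the labels and methods state, the authors prepared low-input libraries by a SMART-type protocol, trimmed adaptors with Cutadapt, aligned reads to NCBIM37 (mm9) with hisat2, kept unique alignments and deposited 1 table of normalized signal per gene (named FPM). The strand setting and the counter are not given in the sources used here, so overlapping genes are uncertain. Dividing each deposited column by its smallest step gave whole reads for 100% of values (tolerance 0.01 of a read). The columns summed to 21793496 to 27493693, so they are counts divided by a size factor and not FPM. Scaling changes every value of a library together.

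Values were fitted as log2(value + 1) with limma 3.58.1 in R 4.3.3 (1 mean per group over all 13 libraries, eBayes with a mean trend), on the 12667 genes that reached 10 normalized reads in 2 or more libraries. Fold changes are on that scale, which understates changes of low genes, and standard errors are those of the model. The study used DESeq2. Limma was the main test because the deposited values are normalized, and DESeq2 1.42.0 and edgeR 4.0.16 on the recovered reads were alternatives. The design had been written for FPM, and its pseudocount and minimum were kept. The detection floor of 3 reads equalled 1.98 to 4.10 normalized reads, and covers counting error only. All libraries were kept as separate samples, since chi-square over degrees of freedom was 43.5 to 244 between libraries of a group. Levels per kilobase used exon unions of GENCODE vM21, a later build than the alignment.

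Replicate numbers come from the titles. They paired CD4 DTx with CD8 DTx libraries, whose deviations from the group means correlated at 0.36, 0.21 and 0.59 for numbers 1 to 3, and in no other pair of groups with 3 shared numbers were all such correlations over 0.1. The members, the lists of other genes and the tests were chosen with earlier results of these data known. Genes named were all members, fixed pathway genes (Il2, Il15, Jak1, Jak3, Il7r, Bcl6, Myc, Pim1, Bcl2 and Ptpn2), up to 4 further genes of each list that passed, by size of change, and the 5 genes nearest to Il2ra and to Cish. Socs7, Socs4, Socs5, Socs6, Il9r, Egr1, Dusp1 and the marker genes are named outside that rule. Names that a spreadsheet had made into dates (21) are not used. Scripts were tested on simulated data.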

Additional observations from a re-analysis of the deposited data

Results flagged for a closer look

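Perforin (Prf1) responded differently to DTx in the 2 lineages by the interaction test, the CD4 effect minus the CD8 effect, with a log2 difference of -3.14 (SE 0.46, limma adjusted p = 0.0447). Prf1 was at 1427 and 1404 in CD4 PBS and 360.0, 546 and 819 in CD4 DTx, and at 5663 and 3488 in CD8 PBS and 12785, 17975 and 14992 in CD8 DTx. All CD4 DTx libraries were lower than CD4 PBS and all CD8 DTx libraries higher than CD8 PBS. Without the filter on low values the interaction did not pass, nor in 7 of the 10 fits that left out 1 library (adjusted p 0.0912 to 0.162). NK cells are known for perforin, and their marker Ncr1 was at 956 and 25.3 in CD8 PBS, 17.6, 2147 and 599 in CD8 DTx, 38.3 and 30.4 in CD4 PBS and 89.8, 115 and 26.3 in CD4 DTx. In each CD8 group the library with the highest Ncr1 had the highest Prf1, and the one with the lowest had the lowest. Its part in the Prf1 result was not tested. Of the 9 members of the IL-2 receptor, STAT5 and SOCS set, none passed this test.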

How the results depend on the processing

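Of 1134 values of the members under another setting, 1065 kept their direction and their side of the threshold, 10 lost and 12 gained the call, and 47 changed sign, none of a call. Il2ra, Cish and Socs2 in both DTx effects and in Treg PBS against CD4 PBS, and Il2rb in CD4+ cells and in Treg PBS, passed under every setting. The cause of the changes below was not tested. After DTx in CD8+ cells 5 members passed with a replicate block and 5 with DESeq2, Il2rb and Socs3 being added, against 3. For CD4 DTx against Treg PBS the count was 0 without a mean trend, 0 at the 4-fold threshold and 0 to 1 leaving out 1 library. For CD8 DTx against Treg PBS it was 2 with a replicate block (Stat5a added) and 0 to 1 leaving out 1 library. For CD8 PBS against CD4 PBS it was 0 in a fit of those groups alone, 0 without the PBS libraries numbered 3 and 0 to 1 leaving out 1 library. Of the pathway genes, 2 rather than 1 passed there with a pseudocount of 10 or median-of-ratios scaling and 0 without the filter or with TMM scaling, and 0 rather than 1 passed in the interaction without the filter.

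Signs changed as follows. Without the PBS libraries numbered 3, a setting chosen after seeing the data, the log2 fold change of Socs1 was 1.14 in CD4+ cells after DTx, 0.48 in CD8+ cells, 0.98 for Treg PBS against CD4 PBS and 0.074 for CD8 PBS against CD4 PBS. In the same setting, against Treg PBS, Il2rg was -0.015 and Stat5b 0.25 in CD4 DTx and Socs3 0.00074 in CD8 DTx, Il2rg was 0.022 for CD8 PBS against CD4 PBS, and the Socs2 interaction was 0.0082. Stat5a for Treg PBS against CD4 PBS was 0.081 with a replicate block. Stat5b for CD4 DTx against Treg PBS was 0.039 with TMM scaling, 0.00055 with median-of-ratios scaling, 0.060 in edgeR and 0.027 in DESeq2. Leaving out 1 library, Socs1 ranged from -1.72 to 1.14 in CD4+ and from -1.87 to 0.48 in CD8+ cells after DTx, from -1.77 to 1.08 for Treg PBS against CD4 PBS, from -1.60 to 1.25 for CD8 PBS against CD4 PBS, from -0.21 to 0.22 for CD4 DTx against Treg PBS and from -1.02 to 1.83 in the interaction. Il2rg ranged from -0.17 to 0.22 and from -0.31 to 0.21 for CD4 DTx and CD8 DTx against Treg PBS, from -0.36 to 0.16 between them, from -0.080 to 0.011 for CD8 PBS against CD4 PBS and from -0.19 to 0.32 in the interaction. Socs3 ranged from -1.41 to 0.00074 for CD8 DTx against Treg PBS, from -2.14 to 1.16 for CD8 PBS against CD4 PBS and from -0.54 to 2.75 in the interaction. Il2ra ranged from -0.58 to 1.66 for CD8 PBS against CD4 PBS and from -0.33 to 1.91 in the interaction, and Socs2 from -1.54 to 0.74 in the interaction. Stat5a ranged from -0.35 to 0.13 for Treg PBS against CD4 PBS and from -0.095 to 0.35 in the interaction, and Stat5b from -0.24 to 0.31 for CD4 DTx against Treg PBS and from -0.30 to 0.26 in the interaction.

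Over all tested genes, in CD4+ cells after DTx 1612 passed, 868 at the 4-fold threshold, and 845 and 658 without CD4 PBS replicates 2 and 3. In CD8+ cells 1377 passed, 748 in a fit of those groups alone, 692 at the 4-fold threshold, and from 197 (without CD8 PBS replicate 3) to 2497 (without CD8 DTx replicate 3). For Treg PBS against CD4 PBS 2581 passed, 1292 at the 4-fold threshold, 1187 without CD4 PBS replicate 3 and 885 without the PBS libraries numbered 3. For CD4 DTx against Treg PBS 1002 passed, 1739 with a replicate block, 1543 in DESeq2, 508 at the 4-fold threshold, 555 without Treg PBS replicate 2 and 491 without the PBS libraries numbered 3. For CD8 DTx against Treg PBS 1089 passed, 624 at the 4-fold threshold, 703 without Treg PBS replicate 2 and 521 without the PBS libraries numbered 3. For CD8 PBS against CD4 PBS 137 passed, 326 in DESeq2, 68 without the PBS libraries numbered 3 and 59 without CD8 PBS replicate 2. For CD8 DTx against CD4 DTx 208 passed, 106 in a fit of those groups alone, 131 in edgeR, 520 in DESeq2, 127 at the 4-fold threshold and 61 without CD4 DTx replicate 2. In the interaction 6 passed, 85 in DESeq2, 12 without a mean trend, 1 without the PBS libraries numbered 3 and 0 to 14 leaving out 1 library. Apart from CD4 DTx with CD8 DTx, no pair of groups met the criterion for pairing by replicate number, although deviations of same-numbered libraries correlated in part (0.19 for CD4 PBS with CD8 PBS, 0.0062 to 0.30 for Treg PBS with CD8 DTx and 0.037 to 0.25 with CD4 DTx, with 4 of 6 libraries closest to their own number in both of the latter). Whether the numbers mark days is not given in the sources used here. The 95% intervals reached over 1 log2 unit to either side for 4 of the 9 members (Il2ra, Socs1, Socs2 and Socs3) in each comparison of groups, and for 6 in the interaction.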
